A study of Homo sapiens with 4 samples.

Results

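Noncoding RNA gene promoters made up 1008 of the 68937 PML peaks called in MDA-MB-231 cells, or 1.46% of the list. They are the rows of the deposited table whose gene type is ncRNA and whose peak centre lies within 1000 bp of a transcription start site (TSS), without the 281 rows named for a microRNA by MIR and a digit. The 1008 peaks belong to 938 genes: 262 peaks at antisense genes (names with -AS), 283 at long intergenic genes (LINC), 14 at small nucleolar RNA host genes (SNHG) and 449 at genes with other names. The label held for most of them, since RefSeq gives no lncRNA entry for the gene of 40 of the 1008 peaks and lists it as protein-coding for 10, TUG1 and TINCR among these.

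The study compared 2 PML ChIP libraries, made with a Bethyl Laboratories antibody against PML, with 2 input libraries. Every library came from MDA-MB-231, a line derived from a triple-negative breast tumour and grown in DMEM with serum and penicillin-streptomycin, and the labels give no treatment or change of genotype. The authors merged the sequencing data of the duplicates, so each peak has 1 score, no value has a replicate error, and the depth per library is unknown here. Peaks of 1 list are not replicates, so the comparisons below are descriptions without a test, and every interval covers counting error only. Coordinates are hg38.

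PML is the scaffold of PML nuclear bodies, protein assemblies known for roles in senescence, antiviral defence and the control of transcription. The title of the series ties PML to the kinase mTOR and to RONIN, also called THAP11, which recognises a promoter motif shared with the factor ZNF143, and to ribosomal genes and senescence. Long noncoding RNAs often start next to a protein-coding gene and share its CpG-rich promoter in the opposite direction. SNHG genes carry small nucleolar RNAs, which guide chemical modification of ribosomal RNA, in their introns, and several of them start with a 5' terminal oligopyrimidine (TOP) tract as ribosomal protein genes do.

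The windows with the RONIN/ZNF143 motif are printed first, because the study's title names RONIN and ribosomal genes. The windows come from RefSeq (GRCh38.p14), each running 5' to 3' from 250 bases before to 50 bases after an annotated gene start. A start was found within 1000 bp of the peak centre for 743 of the 1008 member peaks, and these gave 703 different windows. In the first 4 windows the capitals mark the RONIN/ZNF143 motif on either strand, and at the annotated start of ZFAS1 and SNHG12 they also mark the run of C and T. ZFAS1 lies at chr20:49278392-49278691 (plus strand), SNHG12 at chr1:28581824-28582123 (minus strand), LOC105373562 at chr2:112542163-112542462 (minus strand) and LYRM4-AS1 at chr6:5003566-5003865 (plus strand).
ZFAS1: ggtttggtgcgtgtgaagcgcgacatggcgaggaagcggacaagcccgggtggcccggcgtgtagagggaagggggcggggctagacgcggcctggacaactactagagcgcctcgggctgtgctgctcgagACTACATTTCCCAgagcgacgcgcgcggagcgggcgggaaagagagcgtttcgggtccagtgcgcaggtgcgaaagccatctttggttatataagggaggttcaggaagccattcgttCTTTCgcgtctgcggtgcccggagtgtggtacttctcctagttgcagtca
SNHG12: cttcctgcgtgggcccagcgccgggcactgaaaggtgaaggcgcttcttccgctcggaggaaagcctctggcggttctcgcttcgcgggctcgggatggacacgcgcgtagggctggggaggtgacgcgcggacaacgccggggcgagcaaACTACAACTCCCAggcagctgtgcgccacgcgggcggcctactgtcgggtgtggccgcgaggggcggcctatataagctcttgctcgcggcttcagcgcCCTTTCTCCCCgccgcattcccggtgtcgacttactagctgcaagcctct
LOC105373562: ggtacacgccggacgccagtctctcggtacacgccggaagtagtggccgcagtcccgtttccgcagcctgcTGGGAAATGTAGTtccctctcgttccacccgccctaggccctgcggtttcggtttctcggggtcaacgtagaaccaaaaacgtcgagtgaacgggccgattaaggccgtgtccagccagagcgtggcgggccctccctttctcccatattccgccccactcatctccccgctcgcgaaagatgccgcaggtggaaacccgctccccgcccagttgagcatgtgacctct
LYRM4-AS1: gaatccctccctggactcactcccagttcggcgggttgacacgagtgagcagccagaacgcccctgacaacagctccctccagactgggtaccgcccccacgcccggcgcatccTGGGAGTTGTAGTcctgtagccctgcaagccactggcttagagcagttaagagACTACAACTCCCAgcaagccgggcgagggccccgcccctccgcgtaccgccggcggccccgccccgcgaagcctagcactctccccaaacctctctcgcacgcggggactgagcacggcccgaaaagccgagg

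The RONIN/ZNF143 motif stood in 4 of the 703 member windows (0.569%), against 296 of 13084 protein-coding windows with a peak (2.26%), 31 of 9503 lncRNA windows with no peak (0.326%) and 477 of all 35116 windows (1.36%). The motif, 13 bases long, was searched on both strands, and in no member window did it overlap another motif searched. ZFAS1 and SNHG12, both hosts of small nucleolar RNAs, hold the motif with its first base at -118 and -99, with the annotated start as 0. LOC105373562 holds it at -179 on the other strand and starts 253 bp head to head from POLR1B, a subunit of RNA polymerase I. LYRM4-AS1 holds 2 copies, one per strand, at -136 and -83, and its start lies 221 bp from that of RPP40, a protein subunit of RNase P. The peaks over these windows had scores of 163 at ZFAS1, 152 at SNHG12, 136 at LOC105373562 and 31 at LYRM4-AS1. The first 3 peaks cover the whole window. The LYRM4-AS1 peak covers 157 bases of its window, with the copy at -83 inside the peak and the copy at -136 outside. A match of letters is a description and not a measured binding site.

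SNHG5 is printed for its TOP start without the RONIN motif, DOCK9-DT and MALAT1 as GC-rich promoters of a divergent and of a lone gene. SNHG5 lies at chr6:85678684-85678983 (minus strand), DOCK9-DT at chr13:99086473-99086772 (plus strand) and MALAT1 at chr11:65497488-65497787 (plus strand). Capitals mark the run of C and T at the start of SNHG5, and the SP/KLF letters GGGCGG or their complement in DOCK9-DT and MALAT1.
SNHG5: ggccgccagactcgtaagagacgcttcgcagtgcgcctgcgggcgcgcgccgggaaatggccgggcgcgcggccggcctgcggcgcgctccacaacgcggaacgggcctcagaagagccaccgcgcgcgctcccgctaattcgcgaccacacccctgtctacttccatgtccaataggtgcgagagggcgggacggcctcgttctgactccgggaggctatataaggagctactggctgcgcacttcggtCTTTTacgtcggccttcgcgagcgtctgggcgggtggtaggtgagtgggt
DOCK9-DT: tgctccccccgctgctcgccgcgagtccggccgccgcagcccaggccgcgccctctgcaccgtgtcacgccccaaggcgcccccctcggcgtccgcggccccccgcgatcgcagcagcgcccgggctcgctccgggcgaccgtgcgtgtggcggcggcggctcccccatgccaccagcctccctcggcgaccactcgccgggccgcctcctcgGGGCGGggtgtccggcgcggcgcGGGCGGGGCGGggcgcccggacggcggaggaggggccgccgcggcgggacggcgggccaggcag
MALAT1: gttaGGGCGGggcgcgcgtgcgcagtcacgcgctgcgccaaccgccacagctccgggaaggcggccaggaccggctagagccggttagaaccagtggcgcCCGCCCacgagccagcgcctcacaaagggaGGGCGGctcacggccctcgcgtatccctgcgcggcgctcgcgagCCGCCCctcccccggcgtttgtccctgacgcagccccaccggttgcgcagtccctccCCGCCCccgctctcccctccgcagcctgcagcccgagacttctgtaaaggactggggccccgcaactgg

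A C at the annotated start followed by 4 or more C or T stood in 21 of 703 member windows (2.99%), against 5.12% of protein-coding windows with a peak and 4.07% of all windows. Of the 12 SNHG windows, 3 had it (SNHG12, SNHG5 and SNHG4), and so did ZFAS1. SNHG12 has 11 pyrimidines from the start, while ZFAS1 and SNHG5 have 5. The MALAT1 window holds the SP/KLF letters 5 times and the DOCK9-DT window 3 times. GC content was 73.7% in the MALAT1 window and 84.0% in the DOCK9-DT window, against a median of 64.3% over member windows.

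Peaks at noncoding RNA promoters scored lower than those at protein-coding promoters and higher than the list as a whole. Their median score was 47 (95% interval of the median 42 to 48), against 61 (60 to 61) for 12106 protein-coding promoter peaks and 34 over all peaks. The score is the authors' whole number per peak, on a scale that the table does not state. A score in the upper quartile of the list, which begins at 49, was held by 464 of the 1008 member peaks (46.0%, exact Clopper-Pearson 95% interval 42.9 to 49.2%). The share was 58.4% for protein-coding promoter peaks and 25.5% for all peaks. Among the 1000 highest-scoring peaks, 47 were members and 711 were protein-coding promoter peaks. Scores of members ran from 13, the lowest of the list, to 643, with 41 members at 200 or more and 58 under 20. Member peaks were also narrower, with a median width of 590 bp against 764.5 bp at protein-coding promoters.

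**Figure D1:**
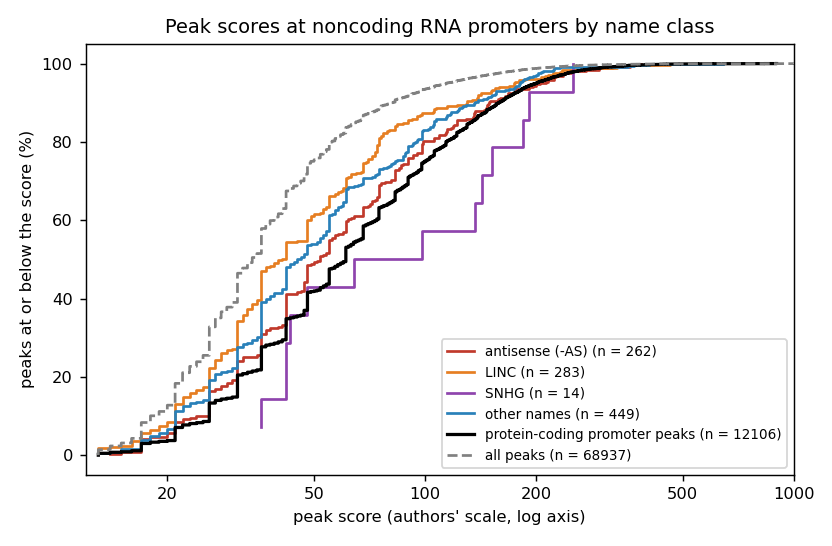
Cumulative share of peaks (y axis, %) at or below each peak score (x axis, log scale, authors' units) for the 4 name classes, protein-coding promoter peaks and all peaks. The LINC curve lies nearest to all peaks with a median of 41, the antisense curve nearest to protein-coding promoters with 52, and the curve of the 14 SNHG peaks begins at 36.

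Median scores were ordered by name class, with intervals that overlap between neighbours in that order. Antisense peaks had a median score of 52 (interval 47 to 58) with 51.5% in the upper quartile. LINC peaks had a median of 41 (36 to 48) with 39.9%. The 14 SNHG peaks had a median of 81, with an interval of 42 to 185 that spans most of their range. Other names had a median of 45 (42 to 52) with 46.3%. Within the other names, 283 peaks at uncharacterised LOC genes had a median of 42, and 18 peaks at divergent transcripts (-DT) had a median of 73.5 with 15 in the upper quartile. Another 12 peaks belong to readthrough loci, which join 2 neighbouring genes, and had a median of 64.5, with a coding start nearby at 6.

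Members were centred just downstream of the start, with more of them far from it than at protein-coding genes. The median distance was 67 bp downstream, and 40.8% lay upstream, against 111 bp and 30.1% for protein-coding promoter peaks. Within 100 bp of the start lay 24.9% of members, against 30.9% of protein-coding promoter peaks, and beyond 500 bp lay 23.9% against 14.75%. LINC peaks were the farthest class, with 30.0% beyond 500 bp, and none of the 14 SNHG peaks lay that far. At the edge of the 1000 bp window, LOC100131496 lies at -1000 bp with a score of 42 and SRGAP2-AS1 at 997 bp with a score of 90. Just outside, LINC02162 lies at -1001 bp with a score of 27 and LINC00299 at -1004 bp with 24, negative distances being upstream.

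**Figure D2:**
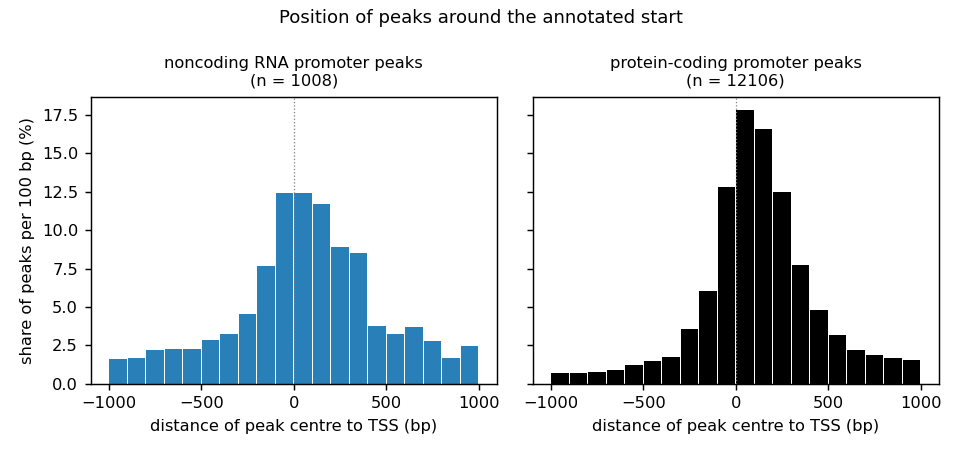
Share of peaks (y axis, %) per 100 bp of signed distance from the peak centre to the TSS (x axis, bp, negative upstream), for noncoding RNA promoter peaks at left and protein-coding promoter peaks at right. Both are highest at the start, and the noncoding RNA peaks spread farther, with 23.9% beyond 500 bp against 14.75%.

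About 1 member in 4 lay close to the start of a protein-coding gene. Of the 960 members on chromosomes covered by the RefSeq windows, 244 (25.4%, interval 22.7 to 28.3%) had a protein-coding gene start within 1000 bp of the peak centre. Another protein-coding start stood as close to 9.39% of protein-coding promoter peaks, and a coding start of a gene other than the assigned one to 2.41% of all peaks. The share was 44.4% for antisense peaks, 7.25% for LINC peaks, 30.8% (4 of 13) for SNHG peaks and 25.8% for other names. The deposited annotation column named a coding transcript for 160 members (15.9%), against 90.5% of protein-coding promoter peaks. A CpG island was named for 56 members (5.56%), against 14.9% of protein-coding promoter peaks, and the table names islands only at peaks annotated as intronic or intergenic. The RefSeq windows hold a start for 15843 of 20056 protein-coding genes and none on chromosome 8, which carries 48 members, so a coding start can be missed.

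Where the strands of both genes were known, most pairs ran in opposite directions. Of 220 such members, 125 (56.8%) were head to head with the starts apart, at a median spacing of 170 bp. Another 77 (35.0%) were on opposite strands with overlapping 5' ends, and 18 (8.18%) were on the same strand. Of these 18, 7 had both starts at the same base, and 3 of the 4 SNHG pairs were on the same strand. The coding gene can be an uncharacterised entry, such as LOC124900276 at SNHG7, so not every coding start is that of a separate known neighbour. The peak interval covered both starts at 91 of the 125 head-to-head pairs, so the deposited table gives to the noncoding gene a peak that also lies over the coding start. All 12 -DT peaks with a coding start nearby had as nearest start the gene they are named after.

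Members at a shared start scored higher than the others, although this did not hold at every CpG level. The median score was 61 (interval 55 to 74) for the 244 members with a coding start nearby, against 42 (39 to 44) for the 716 without one. The median width was 889.5 bp against 532.5 bp. The difference in median score was 29 for antisense peaks, 19 for other names, 7.5 for LINC peaks and 6.5 for the few SNHG peaks. For protein-coding promoter peaks with and without a second coding start it was 8. The ratio of observed to expected CpG moved with it, at a median of 0.871 in windows with a coding start nearby and 0.610 in those without. Among windows with a ratio of 0.6 to 0.9 the median score was 51 with a coding start (107 windows) and 55 without (172 windows). At 0.9 or more it was 75 (89 windows) and 61 (78 windows), at 0.3 to 0.6 it was 61 (15 windows) and 36 (124 windows), and under 0.3 it was 36 in both (7 and 111 windows). The part of CpG content in the pooled difference was not tested further.

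**Figure D3:**
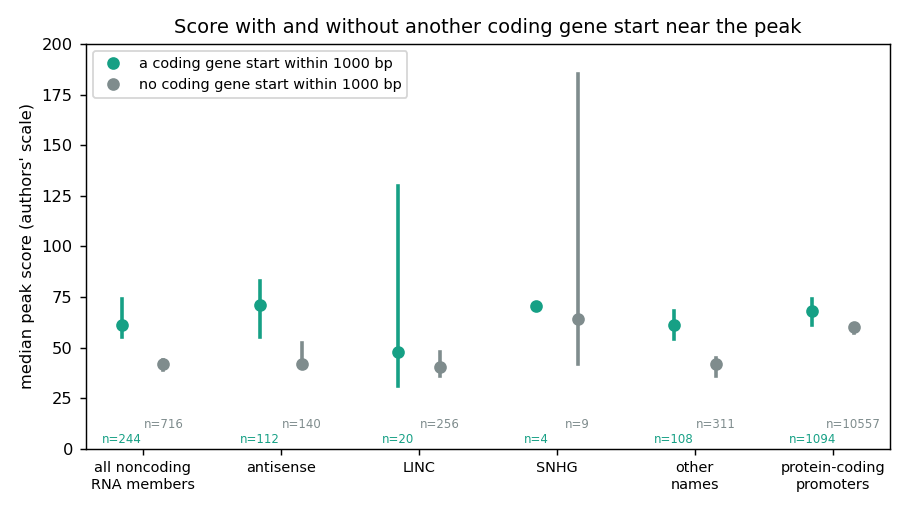
Median peak score (y axis, authors' units) of peaks with a protein-coding gene start of another gene within 1000 bp of the centre and of peaks without one, by class (x axis). Bars are 95% intervals of the median, not drawn for the 4 SNHG peaks with a coding start; all members stand at 61 and 42.

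Taken from the gene starts instead of the table's own assignment, PML peaks were less frequent at lncRNA starts than at coding starts. Of 11462 RefSeq lncRNA genes with a window, 26.9% had a peak centre within 1000 bp of a start, against 63.6% of 15843 protein-coding genes. With a coding start within 1000 bp, 1650 of 2144 lncRNA genes had one (76.96%, interval 75.1 to 78.7%). Of protein-coding genes with a lncRNA start within 1000 bp, 1728 of 2141 had one (80.7%), and the same peak can count for both genes. Without a coding start, 1432 of 9318 lncRNA genes had a peak (15.4%, interval 14.6 to 16.1%). The share was 60.95% for protein-coding genes with no lncRNA start nearby. The windows hold a start for 15843 of 20056 protein-coding genes, so some of the 9318 can lie near a coding start that was missed. How far this raises the 15.4% was not tested. Among antisense-named genes, 77.0% of those with a start near a coding gene had a peak, and 21.5% of the others did. For LINC genes without a coding start the share was 16.3%, and for SNHG genes it was 17 of 25 in all. Both lncRNA groups and the coding genes had more peaks at higher CpG ratios. Here each gene was taken only at its start with the highest ratio, while the shares above count a peak at any start. At a ratio of 0.9 or more, 88.2% of lncRNA genes with a coding start, 62.4% of those without and 85.6% of coding genes without a lncRNA start had a peak. Under 0.3 the shares were 32.9%, 6.49% and 12.3%. These cuts in CpG ratio were chosen after the values were seen, and expression of the genes was not measured here.

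**Figure D4:**
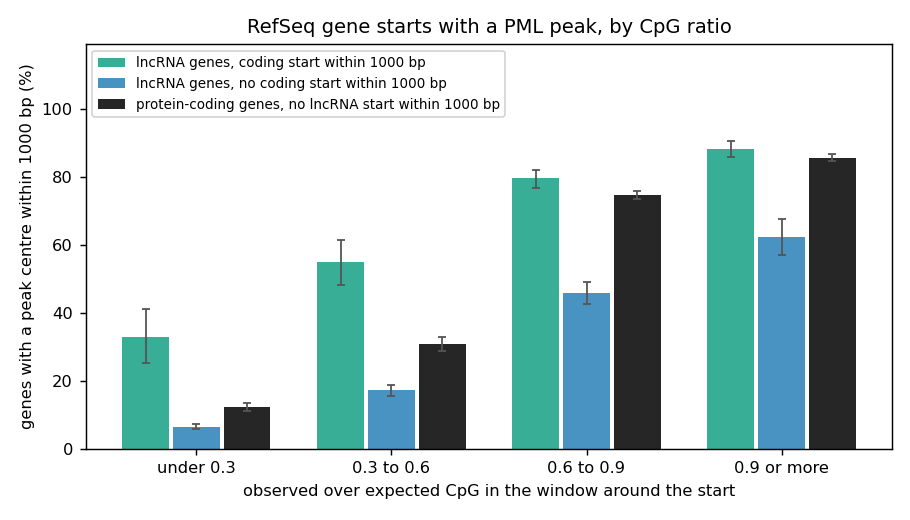
Share of RefSeq genes with a PML peak centre within 1000 bp of the start (y axis, %) by observed over expected CpG in its window (x axis). Each gene is taken at its start with the highest ratio. Groups are lncRNA genes with and without a coding start nearby and protein-coding genes without a lncRNA start nearby. Coding genes with no start in the RefSeq windows are not seen, so the group without a coding start can hold missed neighbours. Bars carry exact 95% intervals; in each CpG class the lncRNA genes without a coding start are lowest, at 6.49% to 62.4%.

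Of the 5 highest antisense peaks, 3 lay within 1000 bp of a coding start in the windows. TRIM52-AS1 led (score 386, chromosome 5, 181259973 to 181262733), and its start lies 69 bp head to head from that of TRIM52, a gene of the tripartite motif family to which PML also belongs. PSMG3-AS1, beside the proteasome assembly chaperone gene PSMG3, had 360, and its annotation names a coding transcript. FGF14-AS2 had 323, with the start of FGF14 7875.5 bp from the peak centre. ZNF503-AS2 had 297 in a peak of 5204 bp, the widest of all members. TRAF3IP2-AS1 had 274 and lies 90.5 bp from the start of REV3L, the catalytic subunit of DNA polymerase zeta, while the start of TRAF3IP2 is 84151.5 bp away. The lowest antisense score was 14, at LIPE-AS1.

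The name of an antisense gene does not always give its neighbour. Of 202 antisense peaks whose named partner has a start on the same chromosome in the table, 90 (44.6%) lay within 1000 bp of it, with a median score of 61.5, and 112 lay farther away, with a median of 47.5. At 71 of these 112 (63.4%) the partner was assigned a promoter peak of its own, against 17 of the 90 within 1000 bp (18.9%), where the table gives a shared peak to 1 gene. Examples are THUMPD3-AS1 (224, with 87 at THUMPD3) and USP3-AS1 (205, with 138 at USP3), both beyond 1000 bp. Of all protein-coding genes, 63.6% had a peak. That share counts genes and any peak near a start, so it is not the same measure as the 63.4% of antisense peaks. FGD5-AS1 had a score of 98, OIP5-AS1 72, TMPO-AS1 55 and ZEB1-AS1, divergent from the mesenchymal regulator ZEB1, 26.

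LINC genes stood mostly alone, and their highest scores were in part at genes with near copies. LINC01410 led with 462 on chromosome 9 from 62801198 to 62802868, in its first intron 568 bp from the start. LINC00869 had 334, LINC01003 331, LINC00847 272, LINC01166 266 and LINC01145 236. The windows of LINC00869 and LINC01145, both on chromosome 1, are near copies: 64.1% and 73.3% of their 20-base words also stand in another window of the table, for each mainly the other's. Such words made up 50% or more of 18 of the 703 member windows, with a median score of 81, against 48 for the rest, and 3 of the 20 highest-scoring windows were among them. How reads of near copies were placed was not tested. The lowest LINC score was 13, shared by 5 peaks.

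The p53-induced transcript LINC-PINT had 3 member peaks. The peak on chromosome 7 from 131105661 to 131107003 had a score of 180, the one from 131109485 to 131110259 had 130, and the one between them had 74. The peak of 130 lies at the start shared head to head with MKLN1, 178 bp away. Only 4 genes had 3 member peaks, the others being CACNA1C-AS1 (86, 26 and 21), LINC01586 (58, 53 and 42) and LOC401463 (115, 27 and 26), while 62 genes had 2 and 872 had 1. LINC01578, also listed among architectural RNAs, had a score of 174, and LINC00963 had 232.

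SNHG genes and other hosts of small nucleolar RNAs had peaks close to the start. SNHG28 scored highest, 252, within the 3' UTR of a coding gene, followed by SNHG7 with 191, SNHG26 with 185, SNHG12 with 152, SNHG6 with 143 and SNHG5 with 137. SNHG26 was centred 4 bp from its start and SNHG25 2 bp from its start. SNHG10 had 98 and starts 178 bp head to head from GLRX5, a mitochondrial glutaredoxin for iron-sulphur clusters. SNHG4, scored 36, starts at the same base as MATR3, a nuclear matrix protein. SNHG3 starts 100 bp from RCC1, the nucleotide exchange factor of the GTPase RAN, on the same strand, and scored 43. SNHG4 and SNHG11 share the lowest score, 36. Of 32 listed snoRNA host genes, a list that does not hold SNHG28, 15 had a member peak, with a median highest score of 75 and 9 in the upper quartile. Over all features, 26.9% of RefSeq lncRNA genes had a peak at a start and 46.0% of member peaks were in the upper quartile. The first of these counts any peak near a start, while the list counts only peaks assigned to the gene, so the shares are not the same measure. They include ZFAS1 with 163 and EPB41L4A-AS1 with 75. SNHG14 had its nearest assigned peak at -50377 bp.

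Among the other names, the highest scores were at starts of divergent and uncharacterised genes. FRG1-DT, scored 643 and rank 25 of the list, led all members and lies on chromosome 4 from 189939815 to 189941381, 139 bp head to head from FRG1. LOC105372480 had 404 and overlaps the 5' end of ZSCAN22, a zinc-finger gene. LOC100132249 had 370 and LOC105377763 had 355, and 92.9% of the 20-base words of the LOC105377763 window also stand in other windows, mainly of HNRNPH1. DOCK9-DT had 232 and starts 29 bp head to head from DOCK9, an exchange factor for the GTPase CDC42. NIPBL-DT had 224 and starts 75 bp from NIPBL, the cohesin loader. The lowest score of this class was 13, held by 3 peaks.

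A mixed list of nuclear body and architectural RNAs had scores from 26 to 224. MALAT1, a nuclear speckle RNA, had 224 on chromosome 11 from 65497355 to 65497944, 89 bp upstream of its start. NEAT1, the scaffold RNA of paraspeckles, had 202 on the same chromosome from 65422069 to 65424059. TUG1 had 55 and shares its promoter region with MORC2, 491 bp away head to head. KCNQ1OT1, the imprinted antisense RNA of KCNQ1, had 26. Of this list of 8 genes, not all of them RNAs of nuclear bodies, 5 had a member peak. Beside this, 26.9% of all lncRNA genes had any peak near a start, a wider count. Of these 5, 4 were in the upper quartile, beside 46.0% of all members.

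Genes of short structured RNAs also had peaks. RPPH1, the RNA of RNase P, had 180 and lies beside the start of PARP2, and RMRP, the RNA of RNase MRP, had 127 and lies beside CCDC107. The vault RNA genes on chromosome 5 had scores of 114 and 17 at VTRNA1-1, 99 at VTRNA1-2 and 52 at VTRNA1-3. TERC, the telomerase RNA, had 79 and SCARNA2, a Cajal body RNA, 26. Of 13 listed genes, 7 had a member peak, beside 26.9% of lncRNA genes with any peak near a start, a wider count. Most of these short RNAs do not belong to the lncRNA class. RN7SK (score 21), RN7SL1 (51), RN7SL2 (52) and RNU1-1 (68) had peaks within 1000 bp of a start but carry another gene type, so they are not members.

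Among RNAs linked to p53, senescence and the cell cycle, 5 of 19 listed genes had a member peak. They were LINC-PINT, DLEU2 with scores of 202 and 41, NORAD, an RNA that binds PUMILIO proteins, with 186, PURPL, a p53-regulated RNA, with 46, and MIAT with 17. From the list of cancer and chromatin RNAs, 17 of 55 had one, with a median highest score of 60. Beside those named above they include FOXD3-AS1 with 213 and 52, CASC2 with 176, JPX with 124, PVT1 with 90, PCAT6 with 60, HOTAIRM1 with 55 and LINC00467 with 48. CYTOR, FENDRR and TINCR had 36 each and FTX had 20. Over all lncRNA genes, 26.9% had a peak near a start, whichever gene the peak was assigned to. Both lists count only peaks assigned to the gene, so their shares are not the same measure as this one.

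**Figure D5:**
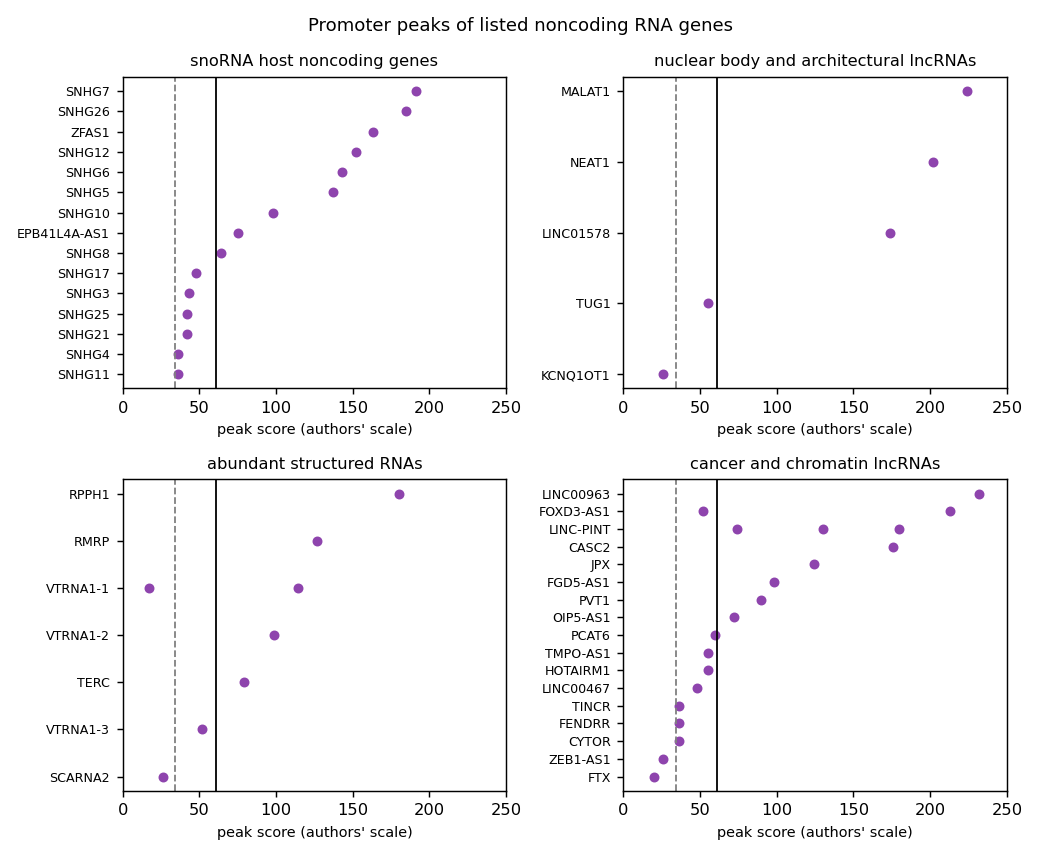
Peak score (x axis, authors' units) of every member peak at listed genes (y axis), one panel for each of 4 lists; the solid line marks the median of protein-coding promoter peaks (61) and the dashed line that of all peaks (34). SNHG28 is not on the snoRNA host list; MALAT1 at 224, SNHG7 at 191, RPPH1 at 180 and LINC00963 at 232 lead their panels.

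GC content and some of the motifs were at different levels in windows with and without a coding start nearby. Median GC content was 68.8% in member windows with a coding start nearby and 61.7% in those without, against 67.0% in protein-coding windows with a peak and 46.0% in lncRNA windows with none. The SP/KLF letters GGGCGG stood in 73.9% of member windows with a coding start and 47.6% of those without, against 73.2% of protein-coding windows with a peak, 12.9% of lncRNA windows with none and 44.95% of all windows. The ETS letters CCGGAAG stood in 11.9% and 9.48% of the same member windows and 10.2% of both together, against 17.1% of protein-coding windows with a peak and 10.3% of all windows. The AP-1 letters TGANTCA stood in 2 of 218 member windows with a coding start (0.917%) and 41 of 485 without (8.45%), against 7.71% of all windows. TATAAA stood in 4 (1.83%) and 33 of the same member windows, against 11.5% of all windows. NF-Y (CCAAT) was nearly level, in 28.4% of member windows with a coding start and 27.6% of those without, against 34.6% of all windows. The E-box CACGTG stood in 20 (9.17%) and 33 of them, against 7.26% of all, and TGACGT of CREB/ATF in 10.55% and 7.63%, against 7.98% of all. GCATGCGC of NRF1 stood in 5.96% and 2.47%, against 3.05% of all, and AAGATGGCG of YY1 in 3.21% and 0.825%, against 1.75% of all. All were searched on both strands, and letters of different motifs overlapped in at most 3 member windows for any pair. The 11 members with the YY1 letters include JPX (score 124) and OIP5-AS1 (72), where they begin 27 and 26 bases after the start.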

How the data were processed

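From 2 PML ChIP and 2 input libraries of MDA-MB-231 cells the authors made 1 annotated peak table on hg38, with the duplicates merged. HOMER 4.11.1, Picard 2.0.1, MACS2 2.1.1.20160309, Trimmomatic 0.36 and BWA 0.7.12 are listed in the submitters' processing notes, with settings and peak threshold not given in the sources used here. Per the file headers, the deposited columns are positions in bp, a score per peak of unstated scale and a signed distance to the TSS. The authors' peak score served for order and description within the list alone. The table gives each peak to 1 gene. Members, lists and comparisons were chosen with earlier results of these data known.

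Gene starts and windows came from RefSeq GRCh38.p14 tables; for 8700 of 10705 promoter peaks (81.3%) the start implied by centre and distance fell within 2 bp of a listed start. The windows do not cover chromosome 8. Medians have 95% order-statistic intervals and shares exact Clopper-Pearson 95% intervals. Named genes are the 6 highest and the lowest of each name class, listed genes with a member peak, genes with 3 member peaks and peaks at the 1000 bp edge; some are given as counts, 1 antisense gene is not reported here, and genes named only as neighbours, partners or motif examples were chosen after their values were seen. The search functions were tested on simulated data. Python 3.11.15, numpy 2.4.6, pandas 2.3.3, scipy 1.17.1 and matplotlib 3.10.9 were used.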

Additional observations from a re-analysis of the deposited data

How the results depend on the processing

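Of 59 values recomputed under alternatives, 35 moved by less than their interval (for the count of members, less than 1.5 times) and 24 moved more. Counts, medians and shares cannot change sign, and the score difference, which can, did not. With a 500 bp window the median score was 49, the share in the upper quartile 50.2%, the share near a coding start 29.2% and the median width 640 bp. With 200 bp there were 445 members, with a median score of 53, 52.1% in the upper quartile, 34.8% near a coding start and a CpG island named for 3.15%. With only peaks at or above the median score of the list the median was 61, the upper quartile share 65.6%, the share near a coding start 30.0% and the median width 748 bp, since low scores are then left out. The share near a coding start was 19.4% within 500 bp of the centre, 17.8% with the peak over the start and 29.2% with either end of any RefSeq coding gene, the last chosen after seeing the data. The score difference between shared and lone members and the lncRNA gene shares below, with all their alternatives, were also chosen after seeing the data. The score difference, 19 as reported, was 41 with the peak over the start and 16 to 26 otherwise. With the peak over the start, a wide peak is more readily counted as shared. Members at or above the median score of the list were wider, at 748 bp against 590 bp for all members, and the part of width in the 41 was not tested. Among RefSeq lncRNA genes, the share with a peak was 61.99% with a coding start and 11.4% without for a 500 bp window, 27.0% and 5.61% for 200 bp, and 65.9% and 10.1% for the higher-scoring peaks. Without a coding start within 500 bp it was 17.1%. The causes were not tested. Scores of single peaks are as deposited. No paired analysis was possible because the authors merged the replicates, and for the same reason no replicate could be left out.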

Other observations

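Members were spread over all chromosomes of the table except Y. Chromosome 1 held 92 and chromosome 2 held 85, and chromosome 5 held 76 members beside 565 protein-coding promoter peaks, 13.5 per 100, against 3.92 per 100 on chromosome 19. By 10 Mb bins, the end of chromosome 12 from 0 to 10 Mb held 26 members beside 94 protein-coding promoter peaks, against a median of 3 members per occupied bin. The bin on chromosome 9 from 130 to 140 Mb held 20.

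A repeat element was named for 34 members (3.37%), against 0.719% of protein-coding promoter peaks: 13 LINEs, 8 LTR elements, 4 simple repeats, 3 SINEs, 3 DNA elements, 2 satellites and 1 SVA retroposon. The name is the one in the deposited annotation, so it does not measure how much repeat sequence the peaks hold. All 34 were centred downstream of the start, by 168 bp or more. As for CpG islands, the annotation names repeats only at intronic or intergenic peaks. Peaks just upstream of a start are annotated as promoter, so the downstream position was fixed by the annotation. The shares of 3.37% and 0.719% carry the same limit. The share over all peaks was not computed.

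Several cancer RNAs had a peak near the gene but not within 1000 bp of a start. UCA1, a bladder cancer RNA, had one of score 117 at 7948 bp downstream, LINC00460 one of 77 at -1574 bp and ZEB2-AS1 one of 47 at -2494 bp, both upstream.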
